A study of Mus musculus with 108 samples.

Results

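The amylase genes of the mouse form 1 cluster on chromosome 3, and 7 of them were followed here through single acinar cells. The members were the rows of the deposited expression table whose Ensembl identifiers map to Amy1, Amy2a1, Amy2a2, Amy2a3, Amy2a4, Amy2a5 and Amy2b, which makes 7 of 45195 gene rows. Their summed value per cell, called the family sum, is given throughout, because the Amy2a copies share sequence and reads. The cells came from the pancreas of untreated C57BL/6 male mice aged 12 weeks, after perfusion, collagenase digestion and Accutase, and each was made into its own library by a modified SMART-seq2 method, which copies whole polyadenylated transcripts and has no molecular identifiers. All cells, 21 with a short deposited total and 87 with a full one, belonged to 1 group. Because no label ties a cell to an animal or a plate, that group is 1 sample, and neither p-values nor standard errors are given over cells. An SD is the spread between all cells unless a set is named, and single cells carry the names of their labels. Values are TPM (a share of reads corrected for transcript length and scaled to a fixed total), which keep no read depth, so the depth behind each value is unknown.

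Alpha-amylase cuts internal bonds of starch and glycogen. The Amy2 genes encode the pancreatic enzyme, which acinar cells store in zymogen granules with proteases and lipases and release into the gut. Amy1 encodes the closely related enzyme known from the parotid gland and the liver, and it has more than 1 promoter. Acinar enzyme genes are known to be switched on by the PTF1 complex, in which Ptf1a, Rbpjl and an E protein bind an E-box (CANNTG) next to a second box with the core TGGGA. In the intact animal, pancreatic amylase is known to depend on insulin and to respond to diet and glucocorticoids.

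The cells carried the transcripts of acinar cells. Of 10 acinar markers, 9 were detected (at or above 1 TPM) in every cell. Of 9 parotid and salivary markers in the file, 7 were not detected in any cell, and Bpifa2 and Aqp5 were each detected in 1 cell, at no more than 1.92 TPM. Of 10 liver markers 7 were not detected, while Alb, which encodes albumin, reached 1 TPM in 6 cells, Apoa2 in 13 cells and Ttr, which encodes transthyretin, in all but 3 cells at a mean of 16.01 TPM. Of 10 ductal markers 5 were detected in at least 10% of cells, with Muc1 in every cell at 25.2 TPM and Cftr in none. Spp1, under that share, was detected in 10 cells and reached 343.6 TPM. No endocrine, fibroblast or endothelial marker was detected in 10% of cells. Single cells did carry several of them. The most in any cell was 6 of 7 endothelial, 4 of 8 fibroblast and 2 of 10 endocrine markers. Plvap, an endothelial marker, reached 25.4 TPM in the 1 cell where it was detected. Of 7 macrophage markers only C1qa, in 16 cells, was detected in at least 10% of cells. A median of 4156 genes was detected per cell, with a range of 2624 to 6946. The table does not close to the same total in every cell. The 21 cells numbered from 92 up had totals of 788380 to 990520 TPM and are called short-total cells, and the other 87, the full-total cells, had at least 999982 TPM. Per the labels, 24 cells received ERCC spike-in RNA, but the labels do not say which.

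On GRCm38 (GENCODE M21 annotation) the members lie on the minus strand between positions 113147656 and 113606699 of chromosome 3, a stretch of 459.0 kb. In the direction of transcription the order is Amy1, Amy2a1, Amy2a2, Amy2a3, Amy2a4, Amy2a5, the pseudogene Amy2-ps1 and Amy2b. The nearest protein-coding genes were hardly expressed. Rnpc3, a spliceosome component whose annotated extent overlaps that of Amy1, averaged 0.63 TPM. Prmt6, an arginine methyltransferase 2896.7 kb from the cluster, averaged 0.26 TPM. Col11a1, a collagen chain 423.8 kb away on the other side, was not detected in any cell.

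**Figure D1:**
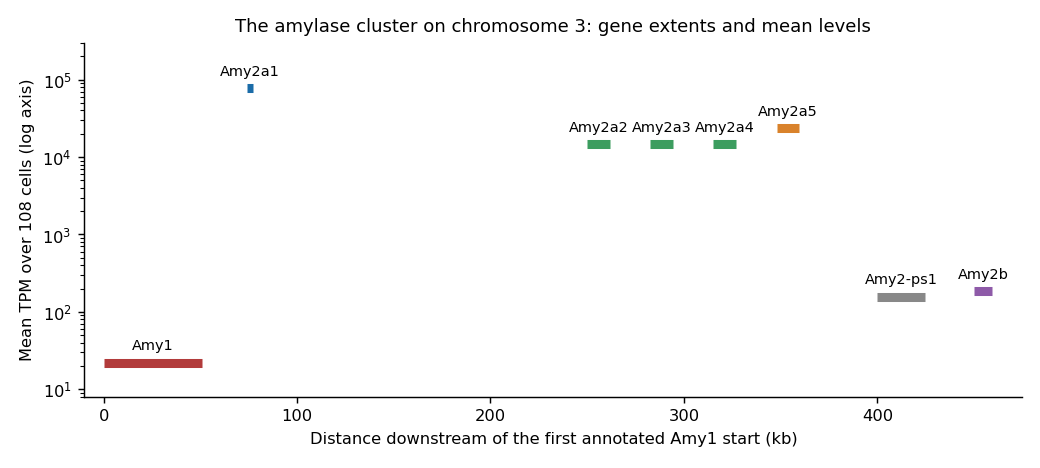
Extent of each amylase gene on the x axis, as distance in kb downstream of the first annotated Amy1 start, and its mean TPM over all cells on a log y axis. The 5 Amy2a genes lie in the middle of the cluster at means of 14589 to 77071 TPM, Amy2b and Amy2-ps1 lie at the far end at 183.3 and 156.4 TPM, and Amy1 lies at the near end at 21.98 TPM.

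The sequences of the members limit how far their values can be told apart. In the M21 annotation the models of Amy2a2, Amy2a3 and Amy2a4 have 3717 bases in 10 exons and are identical. The model of Amy2a5 has 3715 bases and differs from them by 61 edits, all of which lie in the last 2000 bases, past the end that RefSeq gives for the transcript. Within the RefSeq extent of 1577 bases, which holds the 1527 coding bases, the 4 genes do not differ. The annotated model of Amy2a1 is short. It has 890 bases in 4 exons, its end is marked as not found, and it matches the first 890 bases of Amy2a2 but for the substitution T43A (the base of Amy2a2 first, then the position counted from 1 at the 5′ end of the model, then the base of Amy2a1). The lines here show positions 29 to 58 of the models with the differing base in capitals, because this base is all that separates the Amy2a1 model from the same stretch of the other Amy2a models.
Amy2a1: taatctctttcgaaAgatagactgtacctt
Amy2a2, Amy2a3, Amy2a4 and Amy2a5: taatctctttcgaaTgatagactgtacctt

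Windows of 100 bases, the length of 1 read per the design text, were compared between all annotated transcripts. Of the 791 windows of Amy2a1, 43 occur in no other gene (5.4%), and past the RefSeq start of Amy2a5 there are 0 such windows of 653. Amy2a2, Amy2a3 and Amy2a4 each have 0 windows of their own of 3618. Amy2a5 has 1902 of 3616, but 0 of the 1478 within the RefSeq extent. Amy2b has 1309 of 1478 (88.6%), with 40 edits against the Amy2a2 model over its 1577 bases. All 1886 windows of the longest Amy1 model are its own, and 1 of the 5 Amy1 models shares 1029 windows with Rnpc3. Amy2b is listed as an unprocessed pseudogene in GENCODE and as protein-coding in RefSeq. The separate values of Amy2a1 to Amy2a5 are therefore uncertain, while most of the sequence of Amy2b and of Amy1 is their own. Which annotation release the authors used is not given in the sources used here.

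**Figure D2:**
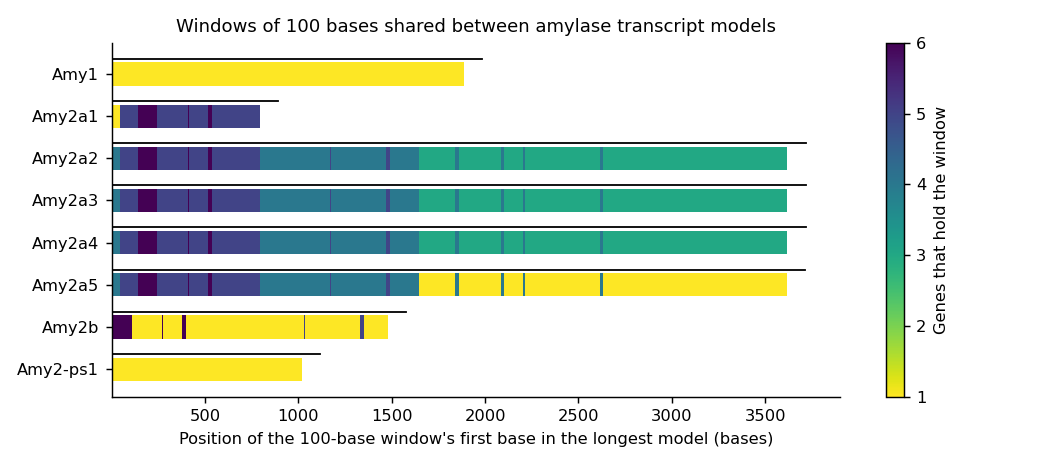
Longest M21 model of each amylase gene (black line, in bases), with a bar under it coloured by the number of genes that hold each 100-base window, from 1 (yellow, its own) to 6 (dark). Amy1, Amy2-ps1 and most of Amy2b are yellow, Amy2a2 to Amy2a4 hold no yellow, Amy2a1 is yellow in its first 43 windows, and Amy2a5 is yellow past its coding part.

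The upstream sequences of 3 members follow, chosen to show a pancreatic member of high level, one of low level and Amy1 side by side. Of the 2 Amy1 starts only the second, downstream one is shown, and the tissue that uses it is not given here. They are from the RefSeq promoter table on GRCm38.p6, minus strand, written in the direction of transcription. Both strands were searched for the E-box CANNTG, for the core TGGGA and for the TATA box TATAAA, and matches are in capitals. For Amy2a5 (chr3:113258650-113258949) and Amy2b (chr3:113156678-113156977) the window runs from 250 bases before the start to 50 bases after it. For Amy1 the 250 bases before the second of 2 RefSeq starts are shown (chr3:113574763-113575012), and the capitals at its left end are TGGGA on the other strand.
Amy2a5: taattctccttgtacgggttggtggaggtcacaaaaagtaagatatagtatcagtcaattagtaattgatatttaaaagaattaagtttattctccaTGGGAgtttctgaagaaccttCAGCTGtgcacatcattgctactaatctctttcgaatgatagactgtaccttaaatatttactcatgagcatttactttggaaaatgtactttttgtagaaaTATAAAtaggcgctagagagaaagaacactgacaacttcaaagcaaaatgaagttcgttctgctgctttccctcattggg
Amy2b: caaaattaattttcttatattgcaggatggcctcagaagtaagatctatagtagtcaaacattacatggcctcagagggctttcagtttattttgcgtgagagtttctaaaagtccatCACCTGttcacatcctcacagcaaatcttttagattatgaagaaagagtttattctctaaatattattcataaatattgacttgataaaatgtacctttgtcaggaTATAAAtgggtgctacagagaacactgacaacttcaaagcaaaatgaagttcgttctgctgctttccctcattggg
Amy1, second start: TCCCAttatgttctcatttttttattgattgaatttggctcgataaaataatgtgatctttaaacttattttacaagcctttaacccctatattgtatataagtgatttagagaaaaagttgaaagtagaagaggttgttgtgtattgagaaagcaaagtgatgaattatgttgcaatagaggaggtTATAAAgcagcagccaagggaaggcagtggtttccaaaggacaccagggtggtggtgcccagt

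The Amy2a5 window held TGGGA 153 bases and CAGCTG 132 bases before the start, and TATAAA 30 bases before it. The Amy2b window differed from it by 91 edits in 300 bases. It held CACCTG at the same 132 bases before the start and TATAAA 26 bases before it, and no TGGGA. In the RefSeq table the starts of Amy2a1 to Amy2a4 correspond to a point 138 bases before that of Amy2a5, so their windows show the same TGGGA 15 bases before the start and the same CAGCTG at position 7 after it. Over the 162 bases that the windows share, Amy2a4 and Amy2a5 were identical. The windows of Amy2a2, Amy2a3 and Amy2a4 did not differ from each other, and Amy2a1 differed from them by 11 edits. Neither of the 2 Amy1 windows held TGGGA and CANNTG starting within 30 bases of each other. That close pair stood in 5 of the 8 amylase windows, against 21.3% of all 32851 windows in the table. These 5 are the Amy2a windows, which are near copies of each other, so they are not 5 separate cases to set against that share. The windows of Amy2a1 to Amy2a4 also held a further close pair, TGGGA on the other strand 137 bases and CAGTTG 118 bases before the start. Singly, CANNTG stood in 72.3%, TGGGA in 61.6% and TATAAA in 13.6% of all windows. A match describes letters and is not a binding site.

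All 7 members were detected in every cell, as were 1.78% of all rows in the table. Their mean levels spanned from 21.98 TPM for Amy1 to 77071 TPM for Amy2a1. Amy2a1 had the 3rd highest mean of all genes, Amy2a5 stood at rank 15, Amy2a2, Amy2a3 and Amy2a4 shared rank 19, Amy2b stood at rank 90 and Amy1 at rank 431. The order Amy2a1, Amy2a5, Amy2a2 held in nearly every cell, since Amy2a1 exceeded Amy2a5 in all cells but 1 and Amy2a5 exceeded Amy2a2 in all but 3.

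Amy2a1 ranged from 3942 TPM in Cell__number_26 through a median of 78782 TPM to 130421 TPM in Cell__number_98, with a mean of 77071 ± 20359 TPM (SD over all cells). It was the single most abundant gene of the cell in 11 cells. A pair of cells stood well below the rest, Cell__number_26 and Cell__number_105, which had 19913 TPM.

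Amy2a5 ranged from 10464 TPM in Cell__number_51 through a median of 22392 TPM to 56778 TPM in Cell__number_16, with a mean of 23526 ± 6177 TPM. Cell__number_16 stood apart from the others at the upper end. Amy2a2, Amy2a3 and Amy2a4 carried the same value in each cell and are given as 1 value from here on, called Amy2a2. It ranged from 5800 TPM in Cell__number_84 through a median of 14574 TPM to 21273 TPM in Cell__number_98, with a mean of 14589 ± 2633 TPM. With a CV (SD divided by mean) of 0.180 it was the steadiest value, against 0.264 for Amy2a1 and 0.263 for Amy2a5. Because the models of these copies are identical, that CV describes the copies together and not 1 gene.

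Amy2b and Amy1 were expressed at levels far under those of the Amy2a genes. Amy2b ranged from 93.6 TPM in Cell__number_61 through a median of 176.3 TPM to 364.8 TPM in Cell__number_103, with a mean of 183.3 ± 49.2 TPM. The family sum was a median of 805 times the value of Amy2b, from 327.3 times in Cell__number_51 to 1804 times in Cell__number_1. Amy1 ranged from 5.38 TPM in Cell__number_52 through a median of 19.8 TPM to 71.6 TPM in Cell__number_34, with a mean of 21.98 ± 12.2 TPM, and it stayed under Amy2b in every cell. It exceeded 50 TPM in 5 cells, and its CV of 0.554 was the highest of the members. The table holds 1 value per gene, so the 2 Amy1 starts cannot be told apart.

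Amy2-ps1, the annotated pseudogene between Amy2a5 and Amy2b, is no member but was also detected in every cell. It ranged from 8.20 TPM in Cell__number_105 through a median of 136.7 TPM to 768.6 TPM in Cell__number_35, with a mean of 156.4 ± 107.6 TPM. All windows of its model are its own, and Amy2b exceeded it in 71 cells.

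**Figure D3:**
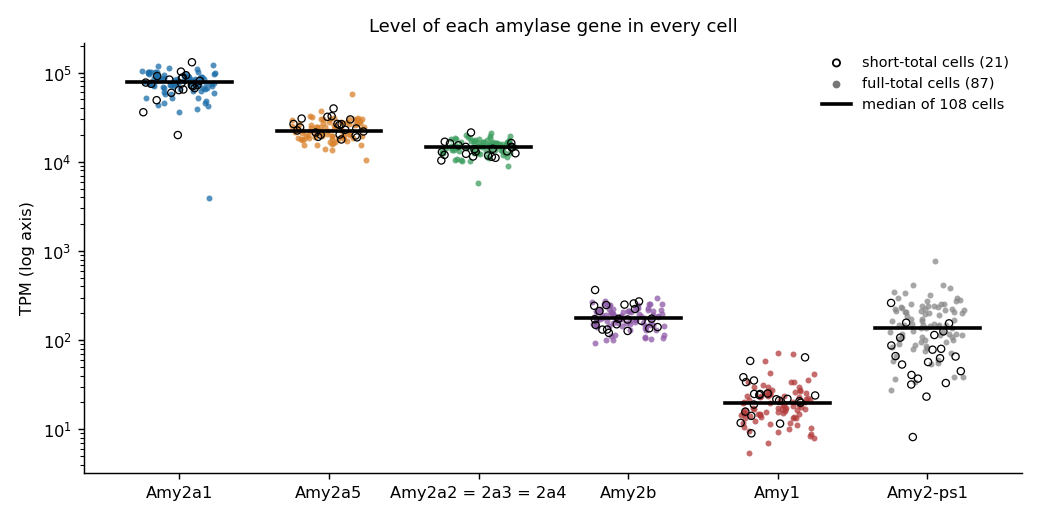
TPM of each amylase gene in every cell on a log y axis, with full-total cells as filled points, short-total cells as open circles and the median of all cells as a black bar. Amy2a2, Amy2a3 and Amy2a4 are 1 column because their values are identical. The Amy2a genes lie between 3942 and 130421 TPM, Amy2b between 93.6 and 364.8 TPM, and Amy1 between 5.38 and 71.6 TPM.

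The family sum averaged 144570.5 ± 30208 TPM over all cells. It took 14.6% ± 3.11 of the cell's own total and 16.4% ± 3.38 of its digestive enzymes. Throughout, the set called digestive enzymes holds the members, Amy2-ps1, the trypsinogens, elastases and chymotrypsins, carboxypeptidases, lipases and colipase, and a list of other secretory proteins. That last list includes proteins that are not enzymes, such as Gp2, Sycn and Spink1. The family sum ranged from 47481 TPM in Cell__number_26 through a median of 144845 TPM to 226370.2 TPM in Cell__number_98. It was under 100000 TPM in 9 cells and over 200000 TPM in 4, and in 89 cells it exceeded every single gene outside the family. Against the summed trypsinogens, the precursors of the protease trypsin, the ratio averaged 0.828 ± 0.227, from 0.318 in Cell__number_26 to 1.43 in Cell__number_98, and amylase was the larger in 24 cells. With the 3 identical rows counted once, the family sum averaged 115392 TPM.

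The make-up of the family was steady in most cells. Amy2a1 gave a mean of 52.5% ± 6.23 of the family sum (median 53.98%), Amy2a2, Amy2a3 and Amy2a4 together 30.9% ± 5.14, Amy2a5 16.5% ± 3.63, Amy2b 0.130% ± 0.0379 and Amy1 0.0153% ± 0.00781. The quartiles of the Amy2a1 share over cells were 51.6% and 55.3%. Cell__number_26 had an Amy2a1 share of 8.30% and Cell__number_105 of 26.6%, and the next lowest share was 41.1% in Cell__number_102.

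Cell__number_26 and Cell__number_105 were also the 2 cells with the lowest family sums. Cell__number_26 held 3942 TPM of Amy2a1, against 16493 TPM of Amy2a5 and 8976 TPM of Amy2a2, and was the only cell in which Amy2a5 exceeded Amy2a1. Cell__number_105 held 19913 TPM of Amy2a1, 19021 TPM of Amy2a5 and 11942 TPM of Amy2a2. Without Amy2a1, the family sum of Cell__number_26 was 43539 TPM and that of Cell__number_105 was 55043 TPM, against a median of 66231 TPM over all cells. Only Cell__number_84, at 42307 TPM, was lower than Cell__number_26 on this sum. Their Amy2b levels, 100.5 and 171.2 TPM, and their Amy1 levels, 17.4 and 24.0 TPM, lay within the range of the other cells. The Amy2b level of Cell__number_26 was still the lowest among cells 1 to 48, and it lay under the first quartile over all cells, 148.0 TPM. Cell__number_26 had 4327 genes detected and Cell__number_105 had 3951.

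The ratio of Amy2a5 to Amy2a2, which depends in the M21 models on sequence past the RefSeq transcript end, had a median of 1.56. Its lowest value was 0.791 in Cell__number_51 and its highest 5.06 in Cell__number_16, where Amy2a5 stood at 56778 TPM and Amy2a2 at 11216 TPM. Cell__number_84, with the lowest Amy2a2 level, held 24787 TPM of Amy2a5, above the median of that gene.

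The weight of Amy2a1 within the family rests on the length its model is given, because TPM divide reads by length. With the TPM multiplied by the longest M21 length, as a stand-in for the share of reads and chosen after the values were seen, Amy2a1 took 21.2% ± 3.28 of the family, Amy2a2, Amy2a3 and Amy2a4 together 51.3% ± 5.67 and Amy2a5 27.4% ± 5.02. Cell__number_26 remained the lowest for Amy2a1, at 2.13%, and Cell__number_105 had 7.99%. The place of Amy2a1 as the leading member therefore holds for the TPM and does not hold for this stand-in, which assumes M21 lengths.

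**Figure D4:**
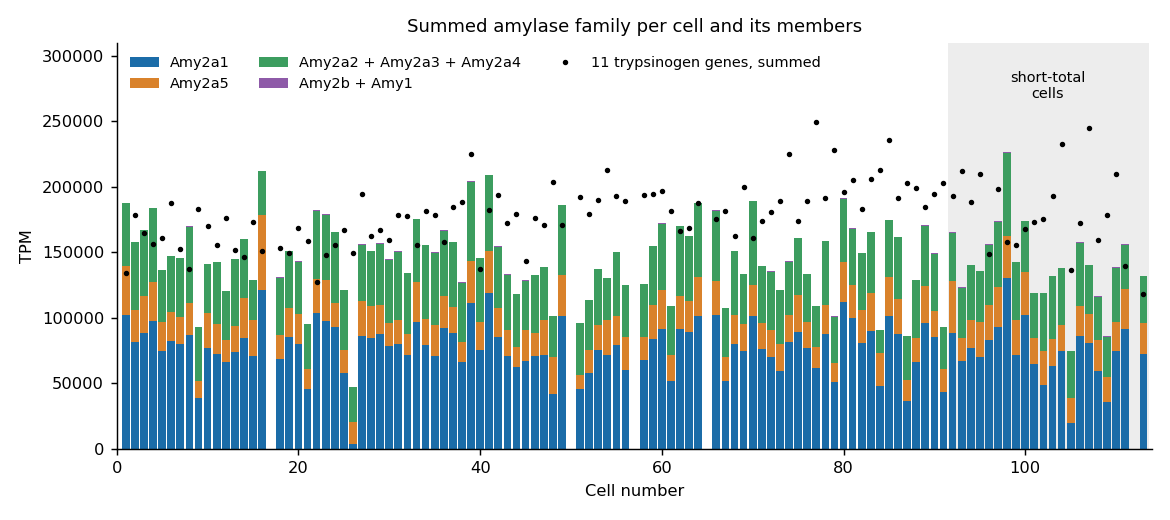
Summed amylase TPM per cell (stacked bars, coloured by member) against cell number, with the 11 trypsinogen genes summed as black points and the short-total cells shaded. Numbers without a bar have no cell in the table. The bars run from 47481 TPM in Cell__number_26 to 226370.2 TPM in Cell__number_98, and they exceed the trypsinogen point in 24 cells.

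Spread between cells was set against that of genes of similar mean, by a lowess trend of the squared CV on the mean over 7227 genes detected in at least 10% of cells. Of these genes 12.0% had at least 2 times the trend. Among the members Amy2a1 stood at 4.10 times the trend, Amy2a5 at 3.06 times and Amy1 at 2.20 times, while Amy2a2 stood at 1.29 times and Amy2b at 1.06 times. So 3 of the 7 members were past the limit, and Amy2b, at a CV of 0.268, was nearest to the trend for its level. With median-of-ratios scaling Amy2b stood at 1.89 times the trend, under the limit of 2. With no filter beyond a mean above 0, Amy2a1 stood at 7.67 times, Amy2a5 at 5.29 times and Amy2a2 at 2.16 times the trend, which puts Amy2a2 past the limit. Amy2-ps1 stood at 6.62 times the trend. Few genes have means as high as those of the Amy2a genes, so the trend is thinly supported there. Without Cell__number_26 and Cell__number_105, left out after their values were seen, Amy2a1 stood at 3.31 times the trend.

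The family did not differ 1.5-fold between sets of cells in the deposited values. Its median was 138522 TPM in the 21 short-total cells, against 147484 TPM in the 87 full-total cells, a difference of -0.09 on the log2(TPM + 1) scale, where the median over all tested genes was -0.15. The ranges overlapped, at 74957 to 226370.2 TPM in short-total cells and 47481 to 212245 TPM in full-total cells. Between cells 49 to 91 (n = 40) and cells 1 to 48 (n = 47) the medians were 146076 and 147484 TPM, a difference of -0.01. None of the 7 members reached 1.5-fold in either comparison, where 6.99% of 7227 genes did between short-total and full-total cells and 1.76% between cells 49 to 91 and cells 1 to 48. Amy2a1 had a median of 74722 TPM in short-total cells, against 79766 TPM in full-total cells, and Amy2b 171.2 TPM in short-total cells, against 180.7 TPM in full-total cells. The widest member difference was that of Amy1, with a median of 21.97 TPM in short-total cells, against 18.1 TPM in full-total cells (log2 difference 0.27). The direction of the family difference flipped with the scaling. With median-of-ratios scaling the family was 0.18 higher (log2) in short-total cells than in full-total cells and 0.11 higher in cells 49 to 91 than in cells 1 to 48. Scaled to the TPM outside the digestive enzymes, these values were 0.29 and 0.28, where the medians over all tested genes were -0.02 and 0.16. No member reached 1.5-fold under any of the 4 scalings. Amy2-ps1 was the exception. Its median was 65.5 TPM in short-total cells, against 148.9 TPM in full-total cells, a log2 difference of -1.17, and the ranges overlapped.

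Amy2b and Amy1, most of whose sequence is their own, followed the family only in part. Whether misassigned Amy2a reads add to the Amy2b value was not tested. All correlations here are descriptions over all cells and carry no p. The cells share a library method and a TPM scale, whose total falls short in 21 of them. Whether they share 1 preparation is not known from the labels. Amy2b had a Spearman correlation of 0.44 with the family sum and Amy1 of 0.42, and Amy2b and Amy1 correlated at 0.40 with each other. Within the 21 short-total cells the same 3 values were 0.17, 0.16 and 0.14, and within full-total cells 0.50, 0.51 and 0.45. Among the Amy2a rows, Amy2a1 correlated at 0.70 with Amy2a5 and at 0.64 with Amy2a2, while Amy2a2 and Amy2a5 correlated at 0.29. These rows share most of their sequence, and the part of shared reads in these values was not tested. The family sum correlated at 0.93 with the sum of the members other than Amy2a1. Amy2-ps1 correlated at 0.23 with the family sum. The family sum correlated at 0.19 with the number of genes detected and at 0.02 with the deposited total.

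Against the other secreted proteins, amylase was highest in correlation with the carboxypeptidases and lowest with the elastases and chymotrypsins in the deposited values. The family sum had a Spearman correlation of 0.40 with the summed carboxypeptidases, 0.19 with the summed lipases and colipase, -0.20 with the summed trypsinogens, -0.48 with the other secretory proteins and -0.66 with the summed elastases and chymotrypsins. These groups share 1 total with amylase, in which a rise in one can lower the others, and its part in these values was not tested. Scaled to the TPM outside the digestive enzymes, all 5 values were positive. They were 0.77 for carboxypeptidases, 0.73 for lipases, 0.58 for trypsinogens, 0.47 for elastases and chymotrypsins and 0.36 for other secretory proteins. In that scaling a shared divisor can move them together, and its part was not tested either. Within cells 49 to 91 alone, the same scaling gave 0.69 for carboxypeptidases, 0.56 for lipases, 0.15 for trypsinogens, -0.08 for elastases and chymotrypsins and -0.20 for other secretory proteins. With median-of-ratios scaling, elastases and chymotrypsins stood at 0.10 and other secretory proteins at 0.064. The negative values therefore depended on the scaling, while carboxypeptidases were highest and lipases next with the deposited values, each cell's own total and these 2 scalings. Elastases and chymotrypsins were below other secretory proteins as deposited and above them in these 2 scalings. Within the 21 short-total cells the value for lipases was -0.26, against 0.29 within full-total cells, and that for carboxypeptidases was 0.23, against 0.46.

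**Figure D5:**
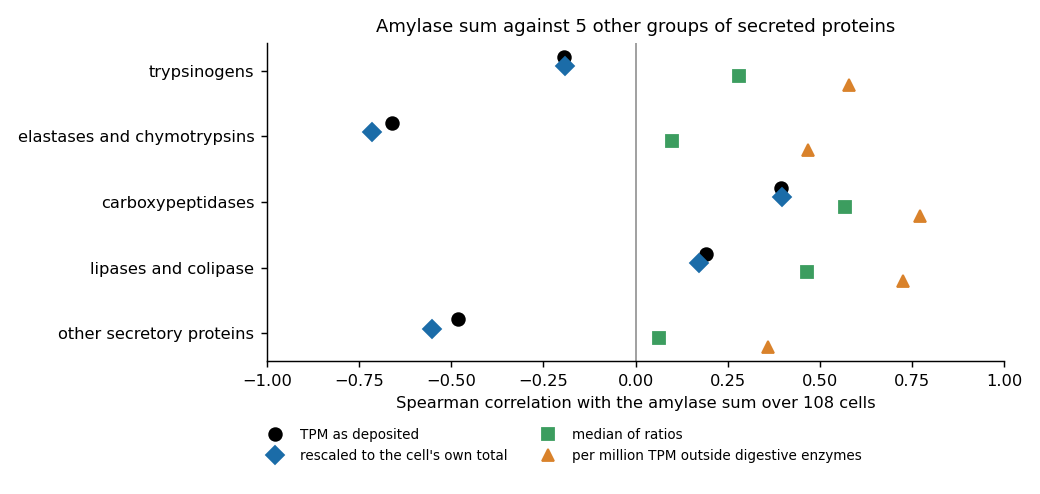
Spearman correlation over all cells (x axis) between the amylase family sum and the summed TPM of 5 other groups of secreted proteins (rows), under 4 scalings (marker shapes). Carboxypeptidases are the rightmost group under every scaling, and elastases and chymotrypsins lie at -0.66 as deposited and at 0.47 when scaled to the TPM outside the digestive enzymes.

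Single genes differed in their correlation with the family sum. Of 75 list genes detected in at least 10% of cells, over 10 lists of enzymes, factors and receptors, 8 reached a correlation of 0.3 with the family sum and 8 reached -0.3. Over all 7220 genes detected in at least 10% of cells, amylases left out, 1.93% reached 0.3 and 0.526% reached -0.3, and the median was 0.03. These shares are not matched for level. The list genes past either limit were detected in every cell, while the 7220 genes include many detected in few cells. The trypsinogens gave 0 of 9 at 0.3 and 1 of 9 at -0.3. Try4 stood at -0.37, Prss2, the gene of highest mean in the list, at -0.15, and Prss3 at 0.05. The elastases and chymotrypsins gave 0 of 7 at 0.3 and 3 of 7 at -0.3, with Ctrb1, a chymotrypsinogen, at -0.64, Cela3b at -0.55 and Ctrc at -0.33, while Cela2a stood at 0.01. Among the carboxypeptidases Cpb1 stood at 0.53 and Cpa1 at 0.22.

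The lipases gave 3 of 6 at 0.3 and 0 of 6 at -0.3. Pnliprp1, a lipase-related protein, stood at 0.46, Cel, the bile salt-dependent lipase, at 0.46, and Pnlip, the pancreatic triglyceride lipase, at 0.38, while Clps, the colipase that Pnlip needs, stood at -0.23. The other secretory proteins gave 3 of 9 at 0.3 and 4 of 9 at -0.3. Gp2, the main membrane glycoprotein of zymogen granules, stood at 0.57, Cuzd1 at 0.49 and Serpini2 at 0.46. Sycn, a granule membrane-associated protein, stood at -0.49, the trypsin inhibitor Spink1 at -0.39, Zg16 at -0.38 and Rnase1, a ribonuclease, at -0.30.

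Among regulators known for amylase, counts at the limit were 0, and since 1.93% of all tested genes reached 0.3 and 0.526% reached -0.3, such counts do not set lists of this size apart. Of 11 acinar factors detected in at least 10% of cells, 0 reached 0.3 in either direction. Ptf1a, at a mean of 12.3 TPM, stood at 0.14, and Rbpjl, its partner, at 35.3 TPM, stood at -0.20. Xbp1, a factor of the secretory pathway, was nearest to the limit at 0.29. It passed the limit within full-total cells at 0.32, with median-of-ratios scaling at 0.36 and when scaled to the TPM outside the digestive enzymes at 0.52, and stood at 0.20 within short-total cells. Bhlha15 (Mist1), a factor of acinar maturation, stood at 0.20. Of 10 insulin and nutrient genes 0 reached the limit, with Akt1 highest at 0.17, the insulin receptor Insr at 0.09 and Eif4ebp1, a brake on translation, lowest at -0.17. Of 5 glucocorticoid-response genes 0 reached it, with Tsc22d3 at 0.12, the receptor Nr3c1 at -0.01 and Dusp1 at -0.12. Several of these genes lie near 1 TPM (Nr3c1 averaged 1.97 TPM and Insr 3.20 TPM), where a weak correlation in single-cell values is no finding in either direction.

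Of 6 secretagogue-response genes, 1 reached the limit. Cckar, the receptor through which cholecystokinin triggers enzyme release, averaged 30.5 TPM, was detected in every cell and stood at 0.34, with 0.04 within short-total cells and 0.38 within full-total cells, and 0.16 with median-of-ratios scaling. Chrm3, the main muscarinic receptor of acinar cells, was detected in 11 cells and stood at 0.09. Other enzymes that cleave carbohydrates were low. Of 18 such genes 9 were detected in at least 10% of cells and 0 of those reached the limit, with Gaa, the lysosomal glucosidase, at 0.24 and a mean of 1.12 TPM. The intestinal starch enzymes Mgam and Sis were detected in 0 cells.

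Among 3723 genes detected in at least 50% of cells, the 10 with the highest Spearman correlation with the family sum were Gp2, Cpb1, Tram1, Serp1, Cuzd1, Tmem59, Ube2d3, Pnliprp1, Cel and Serpini2, from 0.57 to 0.46. Of these, 6 are secreted or granule proteins already described. Tram1, which stood at 0.51 and 37.7 TPM, takes part in moving new proteins into the endoplasmic reticulum, and Serp1, at 0.50 and 51.2 TPM, is a stress-associated protein of the same membrane. Tmem59 stood at 0.49 and Ube2d3, a ubiquitin-conjugating enzyme, at 0.48. The 5 lowest were Ctrb1 at -0.64, Lars2, a mitochondrial leucyl-tRNA synthetase, at -0.58, Cela3b at -0.55, Sycn at -0.49 and Tmem160 at -0.48. Without Amy2a1 in the sum, the 10 highest kept values between 0.42 and 0.57. With median-of-ratios scaling they kept values between 0.42 and 0.68. Within the 21 short-total cells they ran from 0.10 for Ube2d3 to 0.47 for Serpini2, with Gp2 at 0.16, Tmem59 at 0.22 and Pnliprp1 at 0.25. With median-of-ratios scaling, of the 5 lowest Lars2 stood at -0.45 and Tmem160 at -0.37, while Ctrb1 stood at -0.02, Sycn at -0.02 and Cela3b at 0.04.

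Amy2b and Amy1, most of whose sequence is their own, were followed by fewer genes than the family sum. The Amy2b model is still 97.5% identical to that of Amy2a2, and the family sum was a median of 805 times the value of Amy2b. Whether misassigned Amy2a reads add to the Amy2b value was not tested. Amy1 averaged 21.98 TPM, and the part of this low level in its weaker correlations was not tested either. With Amy2b, 0.72% of the 7220 genes reached 0.3 and 0.152% reached -0.3. Of the 10 genes most like the family sum, 4 reached 0.3 with Amy2b, namely Serp1 at 0.35, Tram1 at 0.34, Cpb1 at 0.31 and Serpini2 at 0.30. Gp2 stood at 0.18. With Amy1, 0.291% reached 0.3 and 0.222% reached -0.3, and of the 10 genes 1 reached 0.3, Gp2 at 0.48, while Cpb1 stood at 0.01 and Try4 at -0.46.

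Transcript length moved with these correlations to a degree that depended on the scaling and on the genes taken. The 5 genes of lowest correlation had a median annotated length of 878 bases (longest protein-coding M21 model), the 10 of highest correlation 2159.5 bases, and the 3575 genes in at least 50% of cells with a length 2167 bases. Lengths ran from 556 to 3894 bases (Lars2) among the 5 and from 1411 to 4611 bases among the 10. Across the 3575 genes, which are not independent, the correlation with the family sum had a Spearman correlation of 0.28 with length. The correlation with Amy2b had one of 0.36. Over the 6783 genes in at least 10% of cells with a length, these values were 0.09 and 0.24. For the family sum, median-of-ratios scaling gave 0.29 over the 3575 genes and 0.11 over the 6783. Scaling to the TPM outside the digestive enzymes gave 0.15 and -0.03. A length index was then taken in each cell, as the Spearman correlation across 724 genes, detected in every cell and not digestive enzymes, between length and the gene's log2 deviation from its mean. The index ran from -0.53 in Cell__number_84 to 0.48 in Cell__number_70, and Cell__number_26 had -0.39. Over all cells it correlated at 0.51 with the family sum, 0.55 with Amy2a2, 0.50 with Amy2a1, 0.37 with Amy2b, 0.22 with Amy2a5 and 0.04 with Amy1, and at 0.46 with the number of genes detected. Its part in the spread of amylase between cells was not tested.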

How the data were processed

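Single-cell libraries of mouse acinar cells were analysed from 1 table of TPM per gene and cell, which the authors deposited and which holds 45195 gene rows. Per the submitters' processing notes, the tools were RSEM 1.2.21, STAR 2.4.2a and edgeR with build mm10, and their roles are not given. TPM keep no read depth, so precision from depth is unknown. All cells were kept. Ensembl identifiers were matched to symbols for 44548 rows. Levels were used as deposited, and log2 differences used a pseudocount of 1 TPM. A gene counted as detected at 1 TPM or more. Cells were grouped as the labels give them, as 1 group. Sets of cells by deposited total or cell number were known from an earlier analysis of these data. The labels do not say what they stand for, and they could be technical or differ by animal. Variability was the squared CV over a lowess trend (span 0.3), set differences were differences of medians with a limit of 1.5-fold, and likeness was the Spearman correlation with a limit of 0.3. No test was run over cells. The functions were tested on simulated data. Alternatives were each cell's own total, median-of-ratios factors from 805 genes detected in every cell, scaling to the TPM outside the digestive enzymes, and other limits.

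Transcript models came from GENCODE M21 and promoters from RefSeq (GRCm38.p6). The named genes were the 7 members, Amy2-ps1, the flanking genes, genes of the lists, and the 10 highest and 5 lowest genes by correlation with the family sum among those detected in at least 50% of cells. The members and lists were chosen with earlier results of these data known. Python 3.11.15 was used with numpy 2.4.6, pandas 2.3.3, scipy 1.17.1, statsmodels 0.14.6 and matplotlib 3.10.9.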

Additional observations from a re-analysis of the deposited data

How the results depend on the processing

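Of 197 alternative values 167 kept their side of the limit or stayed within the tolerance set for their kind. The tolerance was 1 SD over cells for levels and shares, 1.5 times for counts and CVs and 0.1 for correlations. An SD between cells is wide for a mean over the same cells, so this count does not measure how firm the levels are. Even the family mean with identical rows counted once, 115392 TPM, stayed within it. The 42 alternative set differences kept their side of 1.5-fold, past it for Amy2-ps1 in short-total against full-total cells and under it for the members and the family, although the sign of the family difference flipped with median-of-ratios scaling and with scaling to the TPM outside the digestive enzymes. The family sum averaged 144570.5 TPM as deposited, 1388779 when scaled to a fixed sum of TPM outside the digestive enzymes and 67499 TPM without Amy2a1. The Amy2a1 share was 52.5% by TPM and 21.2% by TPM times length, since its annotated model is the shortest. Amy2a2 variability was 1.29 times the trend and 2.16 times with no filter beyond a mean above 0, and that of Amy2b was 1.06 times and 1.89 times with median-of-ratios scaling. The 8 list genes at 0.3 became 27 outside the digestive enzymes, 4 within short-total cells and 15 within cells 49 to 91. The 8 at -0.3 became 0 with median-of-ratios scaling, 0 outside the digestive enzymes and 16 within short-total cells. Of the 5 genes least like the family sum 1 stayed among the lowest with median-of-ratios scaling, while every alternative run for this ranking kept at least 7 of the 10 most like. The ranking was not repeated within short-total cells, where the values of the 10 ran from 0.10 for Ube2d3 to 0.47 for Serpini2. The correlation with summed elastases and chymotrypsins, -0.66, reversed to 0.10 with median-of-ratios scaling and 0.47 outside the digestive enzymes. That with other secretory proteins, -0.48, reversed to 0.064 with median-of-ratios scaling and 0.36 outside the digestive enzymes. The cause of these changes was not tested. The TPM times length values and those without Cell__number_26 and Cell__number_105 were chosen after seeing the data. With no read counts, no sampling error of a cell's value can be given, and the Amy2a copies cannot be told apart. No paired analysis was possible because all cells form 1 group.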
